A study of Mus musculus with 8 samples.

Results

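Brca1 and 8 of its partners in the repair of broken DNA by homologous recombination (Brca2, Bard1, Palb2, Brip1, Fanca, Fancd2, Xrcc2 and Blm) were followed through adipogenesis of the mouse line 3T3-L1. They were taken by gene symbol from the deposited expression table, which has 22798 genes. All 9 were in the table, and all 9 were among the 14647 genes tested, whose mean over all libraries was 10 or more. The set was chosen by measured values: the day 6 pseudo-counts, in which Brca1 parted from its partners, were known when it was put together. The day 6 values of these 9 genes are therefore given as a description, with no test.

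3T3-L1 is an established line of fibroblast-like preadipocytes of Swiss albino mouse origin that becomes fat cells under hormones. RNA was sequenced at 4 stages with 2 libraries each, 8 in all. Proliferation libraries came from exponentially dividing cells, and quiescence libraries from cells kept confluent for 48 hours, both without the inducing cocktail. Clonal expansion libraries were taken 10 hours after the cocktail was added, and differentiation libraries 6 days after it. The cocktail, given for 48 hours, held insulin, which the labels give as 5 µg/µl, with 1 µM dexamethasone, a glucocorticoid, and 0.25 mM isobutylmethylxanthine, which slows the breakdown of cyclic AMP. Insulin alone followed it, so day 6 cells were under insulin without the other agents. All cells shared a medium with 10% fetal bovine serum. The labels do not say whether the libraries of a stage came from separate cultures, so the spread between them, and every p-value, may be technical.

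Homologous recombination mends a broken chromosome by copying the intact sister, and it works mainly in cells that have replicated their DNA. Brca1 with Bard1 forms a ubiquitin ligase that favours the trimming of broken ends, Palb2 bridges Brca1 to Brca2, and Brca2 acts in the strand exchange that follows. Genes of this pathway are usually transcribed with the cell cycle, as cells enter DNA replication. Adipogenesis of 3T3-L1 cells passes through a short return to division, the clonal expansion, before the cells leave the cycle and store fat.

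Brca1 lies head to head with Nbr1, which encodes an autophagy receptor, and the deposited mm9 positions put 151 bases between them. The stretch between their starts is shown because both genes are described at every stage below. For Nbr1 it runs to the nearer of 2 annotated starts, and the values per gene do not say which is used. The 250 bases before the starts of 3 partners, Bard1, Brip1 and Brca2, follow. These are the partners whose windows held the E2F letters given below, and the windows of Palb2, Fanca and Blm are not shown. The sequences are from RefSeq on GRCm38.p6, 5′ to 3′ on the strand of the repair gene: chr11:101551956-101552106 (minus strand), chr1:71102973-71103222 (minus), chr11:86201194-86201443 (minus) and chr5:150522371-150522620 (plus). Capitals mark matches on either strand to the letters searched. For E2F, the factors that drive genes of DNA replication, these were TTTCCCG in the usual spelling, with TTTCGCG as a variant, then TTTGCCG as another variant, and finally TTTGGCG as the last variant. For the CHR element of cell cycle genes they were TTTGAA in the usual spelling, with TTCGAA as its variant. The CCAAT box was searched as such. The full cyclic AMP response element was TGACGTCA as a whole, and its core was searched alone as TGACG in the same windows.
Brca1 to Nbr1: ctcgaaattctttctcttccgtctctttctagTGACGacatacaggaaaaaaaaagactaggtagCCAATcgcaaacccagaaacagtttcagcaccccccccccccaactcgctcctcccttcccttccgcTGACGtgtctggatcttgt
Bard1: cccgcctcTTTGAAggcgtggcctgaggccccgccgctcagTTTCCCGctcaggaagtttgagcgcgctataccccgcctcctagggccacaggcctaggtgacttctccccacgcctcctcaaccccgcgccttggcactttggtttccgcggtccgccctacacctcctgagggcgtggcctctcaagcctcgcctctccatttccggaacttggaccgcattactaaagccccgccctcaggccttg
Brip1: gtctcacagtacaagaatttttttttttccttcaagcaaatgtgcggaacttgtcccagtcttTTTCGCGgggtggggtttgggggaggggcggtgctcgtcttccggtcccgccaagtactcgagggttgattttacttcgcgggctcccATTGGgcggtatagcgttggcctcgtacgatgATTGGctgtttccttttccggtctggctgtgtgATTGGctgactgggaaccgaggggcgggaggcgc
Brca2: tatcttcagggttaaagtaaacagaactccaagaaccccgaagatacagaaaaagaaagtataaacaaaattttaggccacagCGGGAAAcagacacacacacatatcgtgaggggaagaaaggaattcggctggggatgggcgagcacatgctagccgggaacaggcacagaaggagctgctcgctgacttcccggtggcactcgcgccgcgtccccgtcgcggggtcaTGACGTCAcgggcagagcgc

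Among the 7 of 9 genes with an entry, in windows of 250 bases before to 50 after the start, E2F letters were found in 3 (Brca2, Bard1 and Brip1), against 6.7% of 32851 windows of this length. CHR letters were found in Bard1, against 19.2% of windows. CCAAT was found in 5 (Brca1, Palb2, Brip1, Fanca and Blm), against 37.4%. The full cyclic AMP element was found in Brca2, against 1.79%, and its core, which the full element contains, in Brca1 and Brca2, against 20.8%. The Brca1 window held CCAAT at -86 to -82 from the start and the core at -198, -119 and -19, and none of the E2F or CHR letters. The windows of the partners Palb2, Fanca and Blm likewise held none of the E2F or CHR letters. These matches are letters in a window, and binding was not measured.

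Values are pseudo-counts per gene, which the authors derived from read counts by scaling all libraries to 1 size. Their sums ran from 122413485 at the first proliferation library to 151529060 at the first clonal expansion library. On the log2 scale, the r between libraries of the same stage was 0.993 to 0.996. Fat cell markers summed to 4941618 and 5265357 at day 6 against 64226 to 151113 at the other stages, and 10 of 10 were higher at day 6 than at each other stage by limma. Preadipocyte markers summed to 658975 and 731450 at day 6, against 3008204 and 2626171 at quiescence, and none of the 8 was at 0. The 7 macrophage and blood markers summed to 823 to 2495 over the libraries, mostly through Cd14 (469 to 2004) and Cd68 (237 to 402), with Csf1r at 31.8 to 201 and Ptprc, Emr1 and Tyrobp at or near 0. Endothelial markers summed to 148 to 472, the epithelial marker Epcam was at or near 0, and the keratin gene Krt18 reached 1711 and 801 at day 6. In such bulk samples fewer cells of a kind and less RNA per cell cannot be told apart.

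Brca1 itself (gene ID 12189; mm9, chr11:101350078-101413269) had 4495 and 6173 pseudo-counts in proliferating cells, 1663 and 2128 in quiescent cells, 6872 and 7761 in clonal expansion and 12336 and 12739 at differentiation. The day 6 libraries were the highest of the 8, the quiescence libraries the lowest, and no stage overlapped another. Per kb of transcript, using the longest annotated transcript of 6572 bases, the Brca1 level was 812 ± 181, 288 ± 50.04, 1113 ± 95.6 and 1908 ± 43.4 pseudo-counts (SD, n = 2 per stage, in the same order).

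**Figure D1:**
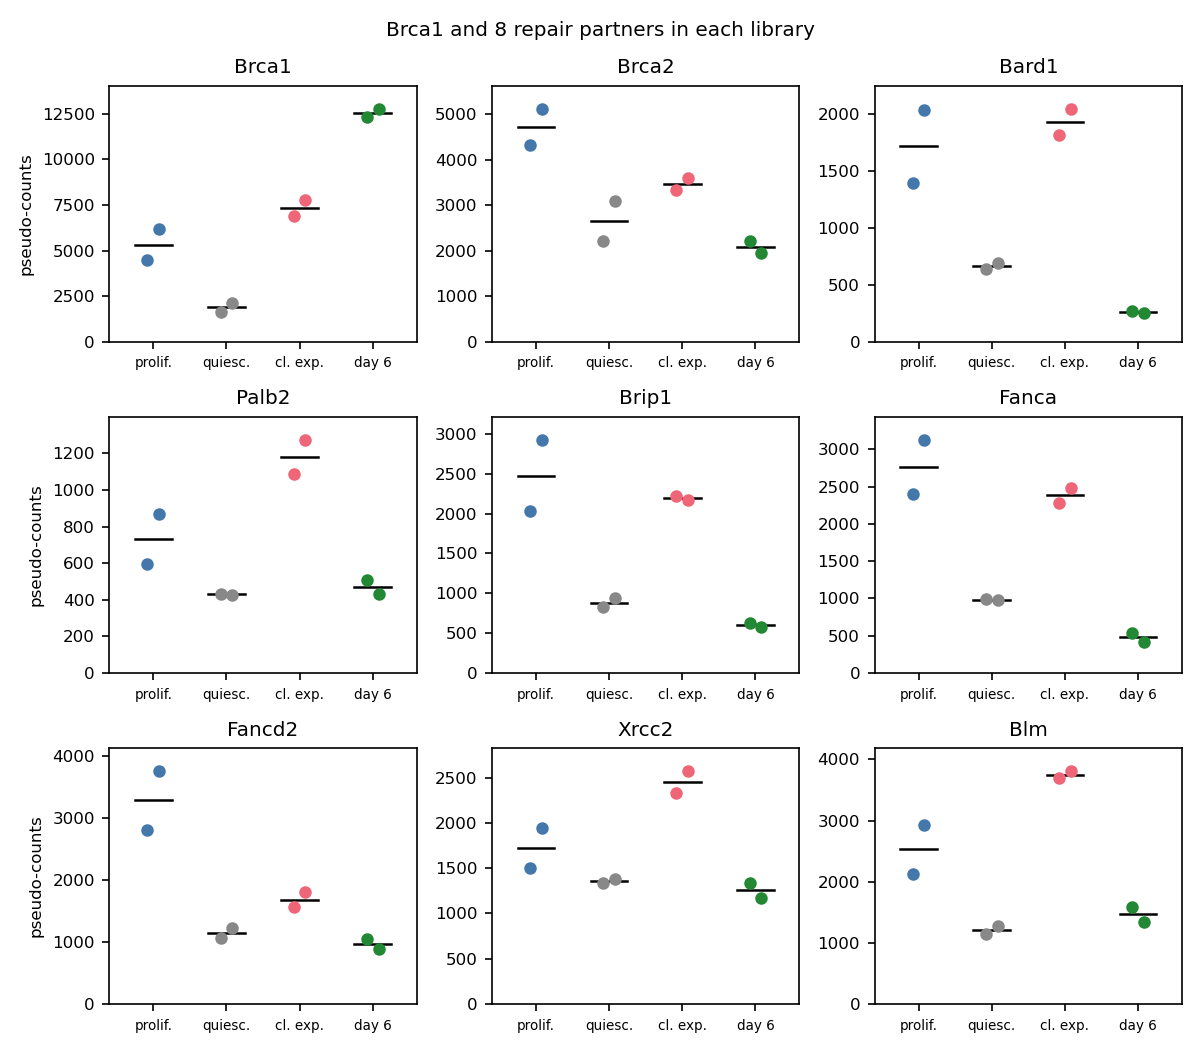
Pseudo-counts (y axis, from 0, with a scale of its own in each panel) of the 9 genes in each library at the 4 stages (x axis: proliferation, quiescence, clonal expansion, and day 6 of differentiation). Dots are libraries and bars are the means of 2. Brca1 is highest at day 6, with 12336 and 12739, where none of the other 8 genes has its highest value.

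Bard1 (mm9, chr1:71074109-71149546), the obligate partner of Brca1 in the ligase, had 1394 and 2032 pseudo-counts in proliferating cells, 642 and 691 in quiescent cells, 1809 and 2037 in clonal expansion and 270.5 and 257 at differentiation. Its lowest libraries were thus those in which Brca1 was highest. Palb2 (chr7:129250779-129276460), the bridge to Brca2, had 596 and 871, 432 and 428, 1086 and 1272, and 506 and 431 in the same stages. Palb2 was highest at clonal expansion, and its day 6 and quiescence libraries overlapped. Brca2 (chr5:151325198-151372324), which acts in strand exchange, had 4319 and 5110, 2211 and 3106, 3347 and 3602, and 2209 and 1949 pseudo-counts. It was highest at proliferation and lowest at day 6.

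Brip1 (chr11:85871638-86014695), a DNA helicase that binds Brca1, had 2033 and 2921 pseudo-counts in proliferating cells, 829 and 937 in quiescent cells, 2219 and 2170 in clonal expansion and 631 and 581 at differentiation. Fanca (chr8:125795105-125842476), a subunit of the Fanconi anaemia core complex, which acts at DNA crosslinks, followed the same order of stages with 2405 and 3122, 989 and 977, 2282 and 2488, and 535 and 417. For both genes the proliferation and clonal expansion libraries overlapped, and the day 6 libraries were the lowest. Fancd2 (chr6:113481676-113546279), the protein that the core complex ubiquitinates, had 2809 and 3750, 1070 and 1224, 1555 and 1798, and 1042 and 879. Its clonal expansion libraries lay well under those of proliferation.

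Xrcc2 (chr5:25195634-25211615), which also acts in strand exchange, had 1500 and 1944 pseudo-counts in proliferating cells, 1338 and 1378 in quiescent cells, 2328 and 2571 in clonal expansion and 1338 and 1173 at differentiation. Blm (chr7:87599879-87680005), the helicase lost in Bloom syndrome, which takes apart recombination intermediates, had 2130 and 2927, 1145 and 1278, 3695 and 3806, and 1593 and 1337. Xrcc2 varied least of the 9 between proliferation and quiescence, and Blm was 1 of 2 partners with a day 6 mean above its quiescence mean, the other being Palb2.

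Ordered by level per kb, Brca1 stood first at proliferation with overlap of the next gene, Fanca at 616 ± 113 pseudo-counts per kb, and each gene there overlapped the next down to Bard1. It stood second at quiescence, below Xrcc2 at 418 ± 8.71 and overlapping Blm at 254 ± 19.6. It stood first at clonal expansion, clear of Blm at 786 ± 16.4, and first at day 6, clear of Xrcc2 at 387 ± 35.9 (SD, n = 2 each). The day 6 order then ran through Blm at 307 ± 38.0, Brca2 at 194 ± 17.1 and Fancd2 at 174 ± 20.8, whose libraries overlapped those of Brca2. Palb2 at 125 ± 14.3 and Fanca at 106 ± 18.6 overlapped each other, and Brip1 at 87.5 ± 5.08 and Bard1 at 46.6 ± 1.67 came last.

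Quiescence lowered most of the repair set together. Compared with proliferation, 8 of the 9 genes were lower at quiescence (limma on log2(pseudo-count + 1), adjusted p under 0.05 over all genes tested), where 11.8% of all genes tested were called lower, and none was higher, where 11.9% were. The median log2 fold change of the 9 was -1.34, against -0.01 for all genes tested. The largest falls were those of Fancd2 (-1.50 ± 0.17 SE), Brca1 (-1.48 ± 0.16, limma adjusted p = 0.000311), Fanca (-1.48 ± 0.17) and Brip1 (-1.47 ± 0.17), followed by Bard1 (-1.34 ± 0.18) and Blm (-1.04 ± 0.16). Brca1 fell with its partners here, to 1896 ± 329 at quiescence against 5334 ± 1186 at proliferation (SD, n = 2 each), 2.80-fold lower. Brca2 (-0.84, limma adjusted p = 0.00544) and Palb2 (-0.74, 0.0225) fell less, and both missed the threshold without the second proliferation library (adjusted p of 0.0671 and 0.185), as Palb2 did without either quiescence library (0.0521 and 0.0528). With no filter on low values neither passed (limma adjusted p of 0.0748 and 0.115). Xrcc2 had a log2 difference of -0.33 (limma adjusted p = 0.137) and passed only without the first proliferation library (-0.52, adjusted p = 0.0427).

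The proliferation libraries differed from each other in the same genes. All 9 were higher in the second than in the first, by 0.24 to 0.55 on the log2 scale with a median of 0.46, against 49.5% of all genes tested. At quiescence 7 of 9 were higher in the second library, with a median of 0.16, in a pair where the fifth of genes with the longest transcripts was higher by a median of 0.25 and the fifth with the shortest lower (-0.25). The 9 genes have long transcripts, with a median of 5512 bases against 3261 among tested genes. With a trend on transcript length removed, 8 of 9 were again called lower at quiescence.

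Clonal expansion raised all 9 genes over quiescence. Each was called higher 10 hours after the cocktail, 9 of 9, where 34.4% of all genes tested were called higher, and the median log2 fold change was 1.31 against -0.01 for all genes. Brca1 rose the most, by 1.96 ± 0.16 (limma adjusted p = 4.2e-06), to 7316 ± 628 pseudo-counts at clonal expansion against 1896 ± 329 at quiescence, 3.88-fold higher. Blm rose by 1.63 ± 0.16 and Bard1 by 1.53 ± 0.18, and Palb2 (1.45 ± 0.20), Brip1 (1.31 ± 0.17) and Fanca (1.28 ± 0.17) rose almost as much. Xrcc2 (0.85 ± 0.15), Fancd2 (0.55 ± 0.17, limma adjusted p = 0.0149) and Brca2 (0.41 ± 0.16, adjusted p = 0.0491) rose the least. The call of Brca2 was lost on leaving out any library but the second of quiescence (limma adjusted p of 0.0565 to 0.343), and that of Fancd2 without the first quiescence or the second clonal expansion library (0.0663 and 0.103). With no filter on low values both calls were lost (0.177 and 0.0762). With every library set to the same total, which moved the median of all genes to -0.24, 7 of 9 were called higher and Brca2 (0.17) and Fancd2 (0.31) were not.

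Set against proliferation, the 9 genes had no common direction at clonal expansion. Brca1 (0.47 ± 0.16, limma adjusted p = 0.0283), Palb2 (0.71 ± 0.20), Xrcc2 (0.52 ± 0.15) and Blm (0.59 ± 0.16) were higher, 4 of 9 where 32.7% of all genes tested were called higher. Fancd2 (-0.96 ± 0.17, limma adjusted p = 0.000653) and Brca2 (-0.44 ± 0.16, adjusted p = 0.0392) were lower, 2 of 9 where 32.1% were called lower. Bard1 (0.19), Brip1 (-0.15) and Fanca (-0.20) did not pass. Both shares lie near those of all genes, and the calls depended on libraries and scaling. The call of Brca1 was lost with no filter on low values (limma adjusted p = 0.142) and with the same total per library (0.324). It was also lost with quantile normalization and with no mean-variance trend (limma adjusted p of 0.11 and 0.0701). Its log2 fold change was 0.24 without the first proliferation library. Without the first proliferation library or without the second clonal expansion library 2 calls were left, as with no filter on low values, and with the same total per library none was higher and 4 were lower (Brca2, Brip1, Fanca and Fancd2). The fall of Fancd2 was called in each of these fits.

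At day 6 Brca1 and its partners lay apart. Brca1 averaged 12538 ± 285 pseudo-counts at differentiation and 1896 ± 329 at quiescence (SD, n = 2 each), a log2 difference of 2.74 or 6.66-fold. The partners lay between -1.33 (Bard1) and 0.27 (Blm) in the same comparison. Fanca (-1.06), Brip1 (-0.54), Brca2 (-0.34) and Fancd2 (-0.26) had both day 6 libraries below both quiescence libraries, as had Bard1, 5 of 9 genes in all, where 40.9% of all genes tested were lower without overlap. For Brca2 this rests on a near tie, 2209 at day 6 against 2211 at quiescence in the nearest libraries. For Fancd2 these were 1042 and 1070. Brca1 and Blm were higher without overlap, where 41.1% of all genes were, and Xrcc2 (-0.12) and Palb2 (0.12) overlapped. With the same total per library Brca1 lay at 2.501, Blm at 0.035, Palb2 at -0.12, Xrcc2 at -0.35, Fancd2 at -0.49 and Brca2 at -0.57.

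Against clonal expansion, Brca1 and its partners had opposite signs at day 6. Brca1 was 1.72-fold higher at day 6 (log2 difference 0.78), and all 8 partners had both day 6 libraries below both clonal expansion libraries, where 44.2% of all genes tested were lower and 44.2% higher without overlap. Bard1 was 7.26-fold lower (-2.86), Fanca 5.04-fold (-2.33), Brip1 3.62-fold (-1.85), Blm 2.57-fold (-1.36) and Palb2 2.51-fold (-1.33). The differences were smaller for Xrcc2 (-0.97), Fancd2 (-0.80) and Brca2 (-0.74). Against proliferation Brca1 was 2.38-fold higher at day 6 (1.25) and the 8 partners lay at -0.45 (Xrcc2) to -2.67 (Bard1), all without overlap, where 44.1% of all genes were higher and 42.2% lower. With the same total per library Xrcc2 lay at -0.72 in that comparison. These comparisons share the day 6 libraries.

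**Figure D2:**
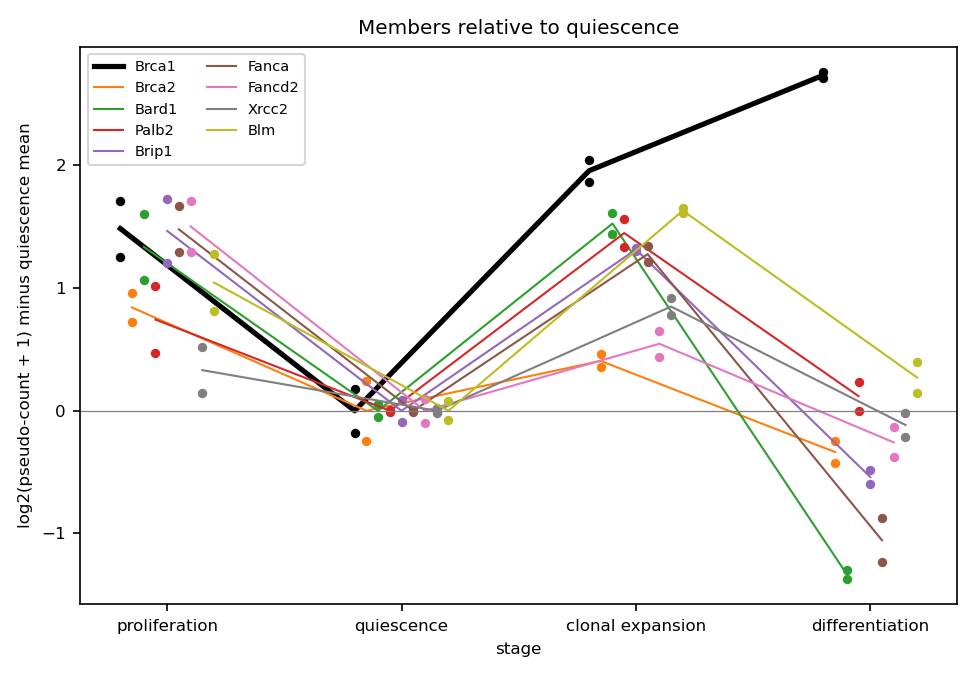
Log2(pseudo-count + 1) of each gene minus its mean over the 2 quiescence libraries (y axis) at the 4 stages (x axis). Dots are libraries and lines join the means, with Brca1 in black and spread slightly along the x axis from the others. Brca1 lies at 2.71 and 2.76 at day 6, and the highest partner value there is 0.40.

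The gap between Brca1 and the median of its partners, each relative to quiescence on the log2 scale, was 0.32 and 0.27 in proliferating cells, -0.11 and 0.11 in quiescent cells, 0.60 and 0.73 at clonal expansion, and 2.90 and 3.16 at day 6. The quiescence values average 0 by construction. The gap was wider at clonal expansion than at proliferation, and widest at day 6. The ratio of Brca1 to Bard1 pseudo-counts was 3.22 and 3.04 in proliferating cells, 2.59 and 3.08 in quiescent cells, 3.80 and 3.81 at clonal expansion, and 45.6 and 49.6 at day 6. The ratio of Brca1 to Brca2 was 1.04 and 1.21, 0.752 and 0.685, 2.05 and 2.15, and 5.59 and 6.54 in the same stages. Multiplying a library by a single factor leaves these ratios as they are. Pseudo-counts are per gene, so that the transcript forms of Brca1 at day 6, and the protein, were not measured.

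Other genes of the pathway were taken from 5 lists (strand exchange, Brca1 complexes, break sensing and resection, Fanconi anaemia, and junction processing), 89 genes of which 87 were tested. At quiescence 31 of the 87 were lower than at proliferation (35.6%) and 2 higher, where 11.8% and 11.9% of all genes were. At clonal expansion 57 were higher than at quiescence (65.5%) and 9 lower, where 34.4% of all genes were called in each direction. At day 6, 16 were higher and 50 lower than at clonal expansion (limma), where 36.8% of all genes were called higher and 36.2% lower, with a median log2 fold change of -0.54 against 0.00 for all genes. Against quiescence 23 were higher and 29 lower at day 6, where 33.4% and 32.9% of all genes were, with a median of -0.03 against 0.01. Against proliferation 16 were higher and 41 lower at day 6, where 34.5% and 33.3% of all genes were, with a median of -0.25 against 0.02. With the same total per library, which moved the median of all genes to -0.23 and -0.26, the splits against quiescence and proliferation were 14 higher with 40 lower and 9 with 55.

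The set was chosen with the day 6 value of Brca1 known, so its rank among the 87 other genes is a description. Its rank among all genes tested was not computed. None of these 87 genes had a log2 fold change above that of Brca1 between day 6 and quiescence. The nearest was Rad51l3, a gene of strand exchange, with 10172 and 11025 pseudo-counts at day 6 against 3356 and 3686 at quiescence (1.59 ± 0.11, limma adjusted p = 7.1e-07). Xrcc3, also of strand exchange, had 8047 and 8240 at day 6 against 2942 and 2989 at quiescence (1.46 ± 0.10). It overlaps Klc1 on the chromosome, which had 13350 and 12109 at day 6 against 14862 and 14259 at quiescence. The reads carry no strand, and the share of them that came from Klc1 was not tested. Against clonal expansion 8 of the 87 lay above Brca1 at day 6, and against proliferation 3 did. Fignl1, an AAA ATPase that acts in recombination, fell to 1097 and 1044 at day 6 against 2131 and 2206 at quiescence (-1.02 ± 0.17, limma adjusted p = 0.000393).

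Of 10 genes of the Brca1 complexes 5 were higher and 2 lower at day 6 than at quiescence, beside 33.4% and 32.9% of all genes tested. Fam175a, which encodes Abraxas, the adaptor of a Brca1 complex, had 3450 and 3141 pseudo-counts at day 6 against 1143 and 1253 at quiescence (1.46 ± 0.13, limma adjusted p = 5.0e-06). Bap1, a deubiquitinase found as a Brca1 binding protein, rose by 0.44, and Rbbp8, which encodes the resection factor CtIP, fell by 0.44. Cobra1, a cofactor of Brca1, fell by 0.26.

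In break sensing and resection 3 of 23 genes were higher and 10 lower at day 6 than at quiescence. Of all genes tested 33.4% were called higher and 32.9% lower in this comparison. The shares called higher and lower were 10% and 35% in the Fanconi anaemia list below, and 44.4% and 33.3% in junction processing. Both of these lower shares lie near that of all genes. The checkpoint kinases parted: Chek2 had 2081 and 1666 pseudo-counts at day 6 against 1241 and 1089 at quiescence (0.68 ± 0.14, limma adjusted p = 0.00199), and Chek1 had 497 and 377 against 1042 and 1158 (-1.34 ± 0.21, adjusted p = 0.000231). Rad17, a loader of the checkpoint clamp, rose by 0.86, and the resection nuclease Exo1 fell by 1.07. Of 20 other Fanconi anaemia genes 2 were higher (Stra13, 0.48, and Mad2l2, 0.47) and 7 lower, with the largest falls in Fancc, of the core complex (-1.34), and Slx4, a nuclease scaffold (-0.91). Of 9 genes of junction processing 4 were higher, led by the nuclease subunit Slx1b (0.83) and Rmi1, which acts with Blm (0.79). The 3 lower ones included Eme1, a subunit of the Mus81 nuclease (-0.87), and the topoisomerase Top3b (-0.37).

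In end joining, which rejoins ends without a template, 4 of 16 genes were higher at day 6 than at quiescence and 7 lower, with 33.4% and 32.9% of all genes called in the same comparison. Xrcc6, which encodes Ku70, rose by 0.64 and the ligase gene Lig4 by 0.77, and the polymerase gene Polm (-1.93) and Aplf (-1.66) fell. In mismatch repair 3 of 7 were higher, including Mlh3 (0.90) and Msh3 (0.50), and 2 lower, among them Pms1 (-0.42). Of 40 DNA replication genes 6 were higher and 26 lower, with a median of -0.61, and of 28 mitosis genes none was higher and 27 were lower. Most transcripts of DNA replication and mitosis were thus lower at day 6 than in quiescent cells, while Brca1 was 6.66-fold higher.

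**Figure D3:**
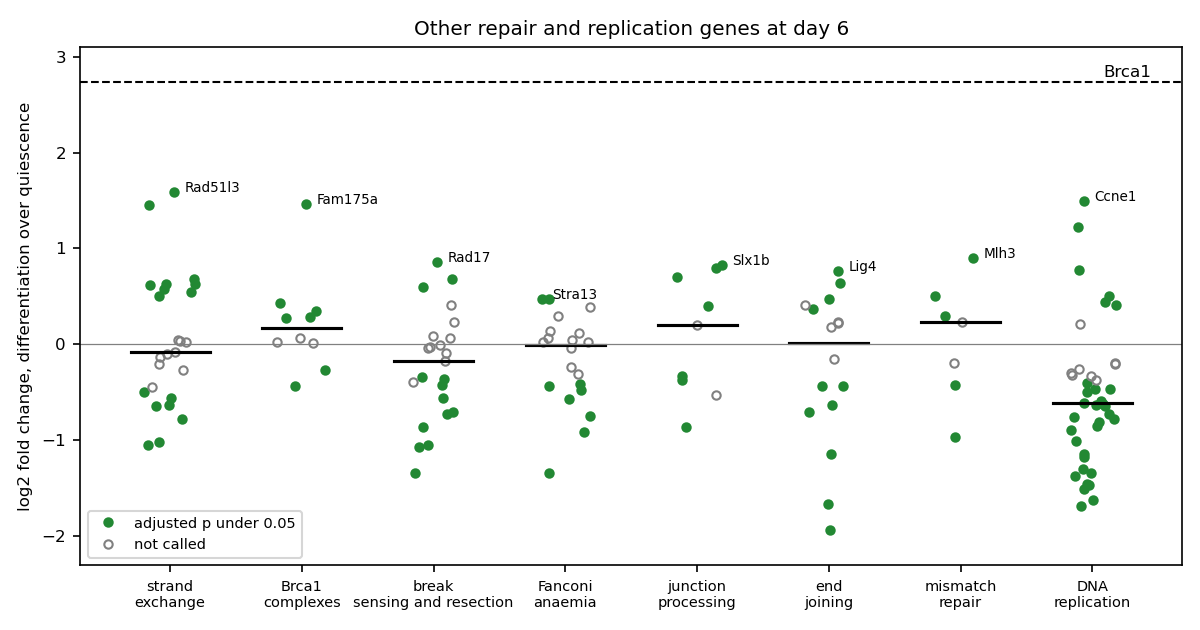
Log2 fold change of differentiation over quiescence (y axis) for the genes of 8 lists (x axis). Each dot is a gene, filled where its limma adjusted p is under 0.05, bars are list medians, sideways spread is for legibility, and the dashed line is Brca1. The gene with the highest value of each list is named, and none reaches the line at 2.74, the nearest being Rad51l3 at 1.59. The line is among the values by which the set was chosen.

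Nbr1, whose start lies next to that of Brca1, had 25554 and 22178 pseudo-counts in proliferating cells, 25359 and 26280 in quiescent cells, 17633 and 17619 in clonal expansion and 47473 and 48254 at differentiation. Its value exceeded that of Brca1 in every library, and the ratio of Brca1 to Nbr1 was 0.176 and 0.278, 0.0656 and 0.0810, 0.390 and 0.440, and 0.260 and 0.264. Nbr1 did not pass between quiescence and proliferation (0.12 ± 0.10, limma adjusted p = 0.43) and fell at clonal expansion against quiescence (-0.55 ± 0.10, adjusted p = 0.000671), where Brca1 rose. It rose at day 6 against clonal expansion (1.44 ± 0.10, limma adjusted p = 5.9e-07), against quiescence (0.89 ± 0.10, 2.3e-05) and against proliferation (1.01 ± 0.10, 8.8e-06). Day 6 was thus the stage with the highest values of both genes.

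The nearest genes of the partners were compared in the same way. Dctn5, a dynactin subunit gene head to head with Palb2 at 94 bases, had a log2 fold change of 0.23 at day 6 against quiescence (limma adjusted p = 0.0655). Tmem111, head to head with Fancd2 at 43 bases, rose by 0.89 ± 0.10 (adjusted p = 3.0e-05), where Fancd2 lay at -0.26. N4bp2l1, tail to tail with Brca2 at 1893 bases, rose by 3.36 ± 0.23 (adjusted p = 6.7e-07), and Zfp276, a zinc finger gene tail to tail with Fanca at 653 bases, fell by 0.58 ± 0.11 (adjusted p = 0.00074). The gene 4931417G12Rik, tail to tail with Fancd2 at 476 bases, had only 14.1 to 40.1 pseudo-counts over the libraries. In the deposited positions no gene overlapped any of the 9. In GENCODE M21, on another build, Zfp276 overlaps Fanca, Fancd2os overlaps Fancd2 and the antisense Gm42529 lies in Brca2. With reads that carry no strand these cannot be told apart. Processed pseudogenes are annotated over Bard1, Palb2, Brip1, Fancd2 and Blm, and no gene is annotated over Brca1 or Xrcc2.

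**Figure D4:**
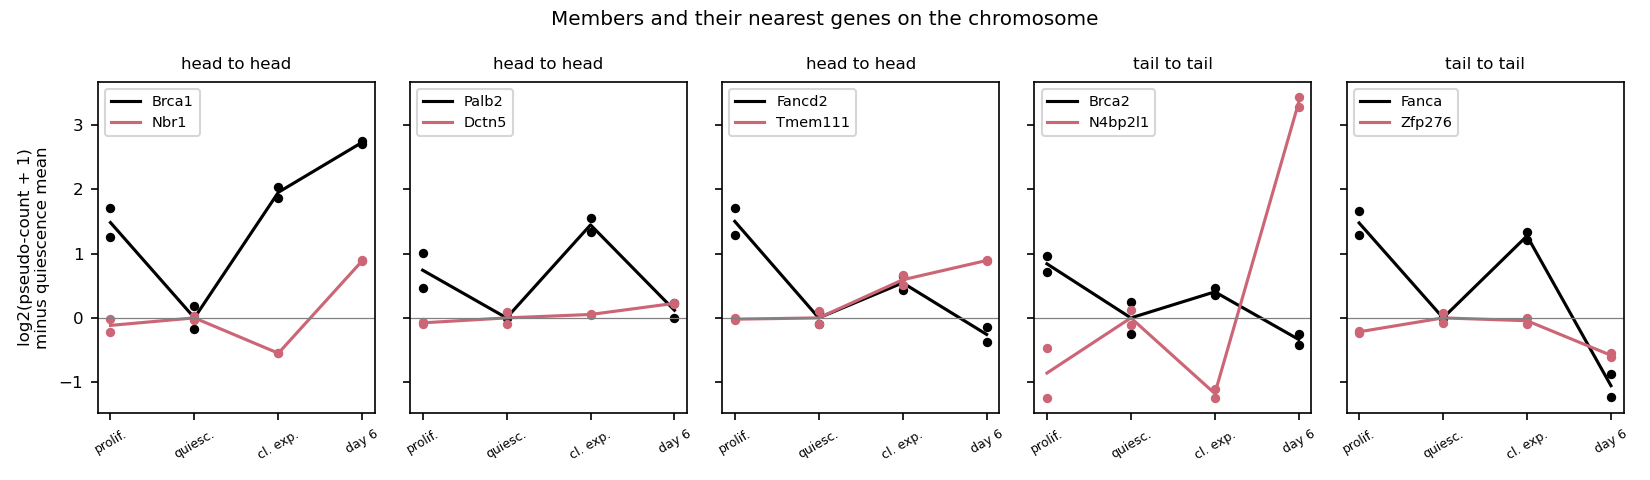
Log2(pseudo-count + 1) minus the quiescence mean (y axis) at the 4 stages (x axis) for 5 of the repair genes (black) and the nearest gene on the chromosome (red). Dots are libraries and lines join the means of 2. Nbr1 rose by 0.89 at day 6 over quiescence beside Brca1 at 2.74, and N4bp2l1 rose by 3.36 beside Brca2 at -0.34.

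Over the 8 libraries, the profile of Brca1 was compared with that of every gene with a mean of at least 200, 11632 in all, by Pearson's r on the log2 scale. The libraries are pairs from 4 stages, so r is given as a description, and it takes no account of the size of a change. Tnpo3, named below, averaged 24335 at quiescence and 37083 at day 6, and Naa35 averaged 7086 at proliferation and 5931 at day 6. The genes most like Brca1 were Gyk, which encodes glycerol kinase (r = 0.983), the nuclear import receptors Ipo9 (0.979) and Tnpo3 (0.978), Lgals3, which encodes galectin-3 (0.978), and Bok, of the Bcl-2 family (0.978). The profile of Lgals3 was nearest in amplitude, with 14622 ± 1944, 6061 ± 836, 20136 ± 794 and 30997 ± 4224 pseudo-counts in the order of the stages (SD, n = 2 each). The genes most like the mean of the 8 partners were Rad54l, a DNA translocase of recombination (0.994), Esco2, which acetylates cohesin (0.992), the centriole gene Sass6 (0.989), Naa35 (0.989) and Traip, a ubiquitin ligase of the replication machinery (0.989).

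Each partner followed the mean of the other partners, with r of 0.992 for Brip1, 0.970 for Fanca, 0.961 for Bard1, 0.893 for Brca2, 0.861 for Blm, 0.860 for Xrcc2, 0.840 for Palb2 and 0.821 for Fancd2. Brca1 had an r of -0.01 with that mean and Nbr1 of -0.85. With Brca1 itself, r ran from -0.21 for Bard1 to 0.38 for Blm among the partners and was 0.39 for Nbr1. All these r include the day 6 libraries, by whose values the set was chosen, and r without them was not computed. Relative to quiescence, Brca1 lay at 1.26 and 1.71 in proliferating cells and at 1.87 and 2.04 in clonal expansion. The partner median lay at 0.94 and 1.44, and at 1.27 and 1.32.

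**Figure D5:**
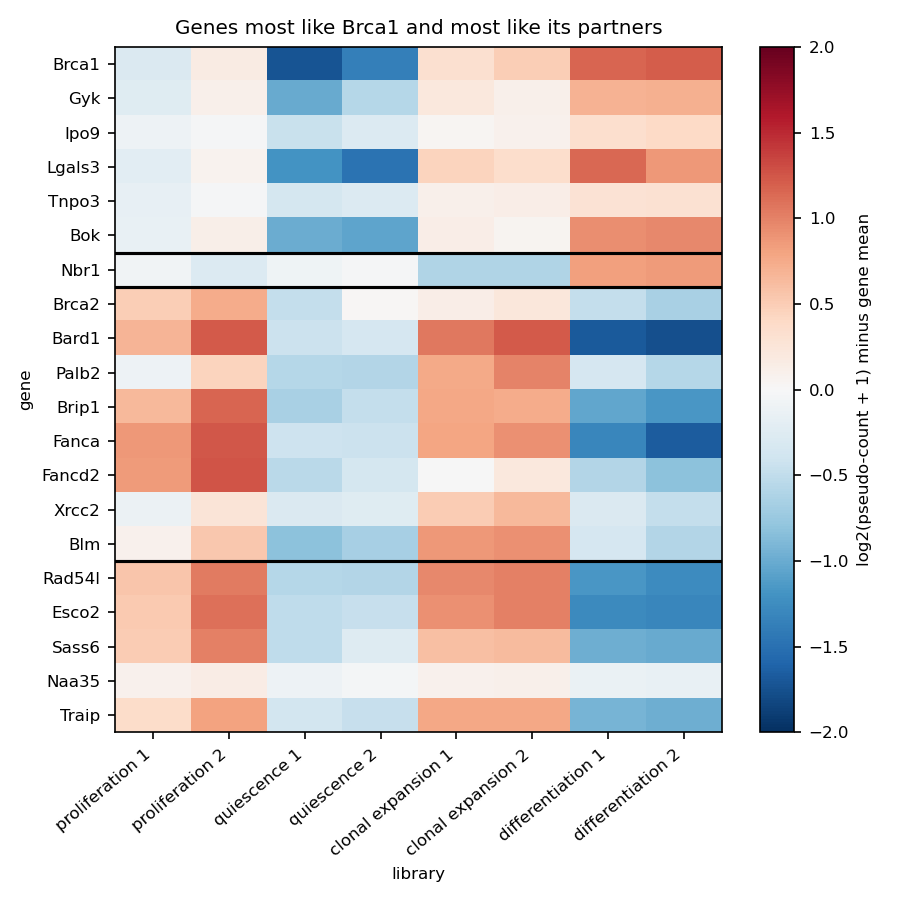
Log2(pseudo-count + 1) minus the mean of each gene (colour, red high and blue low, cut at 2 in either direction) in the 8 libraries (columns). Rows are Brca1 with the 5 genes most like it, then Nbr1, then the 8 partners, then the 5 genes most like their mean. The top block is red in the differentiation libraries, where the partners and the bottom block are blue. The colour is pale for Ipo9, Tnpo3 and Naa35, whose values vary little.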

How the data were processed

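RNA was extracted with Trizol and made into unstranded TruSeq libraries, read as single reads of 100 nt, per the labels' protocols. The deposited table gives a signal per gene and library, pseudo-counts that the authors brought to a common library size with edgeR by relative log expression, as the name of the deposited table says. CASAVA 1.8.2, edgeR and the mm9 genome are named in the submitters' processing notes, and the aligner is not given in the sources used here. The values could not be turned back into whole reads, so read depth before this step is unknown and no count test was run.

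The 14647 of 22798 genes whose mean over the 8 libraries reached 10 were fitted as log2(value + 1) on stage with limma 3.58.1 in R 4.3.3, with a mean-variance trend and 4 residual degrees of freedom. The two-sided p-values were adjusted by Benjamini-Hochberg over all these genes, with 0.05 as the threshold. Fold changes are on this scale and understate those of low genes. The fit was also run on simulated counts, drawn independently with the same relative spread for all genes and few genes changed. Many more genes were called in the real data, so that run does not give the error rates here. Python 3.11.15 with pandas 2.3.3, numpy 2.4.6 and matplotlib 3.10.9 did the rest. Transcript lengths came from GENCODE M21 (98.9% of tested genes matched) and promoters from RefSeq GRCm38.p6.

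The members, lists and tests were chosen with earlier results of these data known. Beside the members, the text names per list and comparison at most 2 genes in each direction with the largest called change, a higher stage averaging 200 or more and no overlap; the 5 genes most like each profile; genes within 5000 bases of a member; and markers. Alternatives were other pseudocounts, filters and scalings, no trend, the replicate number as a block, a length correction, and leaving out each library. Some genes that this rule names are among the counts but are not reported here by name.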

Additional observations from a re-analysis of the deposited data

How the results depend on the processing

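The gap between Brca1 and its partners at day 6, 3.033 on the log2 scale, lay between 2.90 and 3.16 under every alternative. These limits are the values of the single day 6 libraries. Filters, the trend and the replicate block do not enter the gap, and a single factor per library hardly moves it. Those alternatives therefore could not test it, and the gap describes the values by which the set was chosen. Without 1 library, members called numbered 6 to 9 for quiescence against proliferation (8 with all libraries), 7 to 9 for clonal expansion against quiescence (9) and 2 to 6 for clonal expansion against proliferation (6). Other repair genes called at day 6 numbered 61 to 67 against clonal expansion (66), 40 to 52 against quiescence (52) and 46 to 63 against proliferation (57). With no filter on low values, 6 members were called for quiescence against proliferation, 7 for clonal expansion against quiescence and 2 for clonal expansion against proliferation. Brca2 and Palb2 lost their calls between quiescence and proliferation, and Brca2 and Fancd2 between clonal expansion and quiescence. Over all genes 953 were higher and 804 lower at quiescence than at proliferation, among 22798 tested, against 1740 and 1732 with the filter. Without the second proliferation library these were 660 and 644. Directions that turned were those of Bard1 between clonal expansion and proliferation (-0.085 with the same total per library, and -0.082 to 0.46 on leaving out a library), of Brip1 in that comparison on leaving out a library (-0.41 to 0.11), and of Palb2 at day 6 against quiescence with the same total (-0.12). Bard1 and Brip1 were not called with all libraries, Palb2 at day 6 had no test, and the cause was not tested.

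Same-numbered libraries deviated together above 0.1 in 2 of 6 pairs of stages (correlations of 0.354 and 0.134). The other correlations were positive too, at 0.0126 to 0.0717. The main fit did not take the numbers as pairing, though these correlations do not decide whether they are. With the replicate number as a block, 1990 genes were called higher and 2015 lower at quiescence than at proliferation, against 1740 and 1732. With the replicate block, 8, 9 and 6 members were called in the 3 tested comparisons, as without it, and 66, 54 and 61 other repair genes at day 6 against clonal expansion, quiescence and proliferation. Read depth is unknown, so no limit from depth can be given.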
